A study of Solanum lycopersicum with 12 samples.

Results

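The jasmonate and ethylene genes LOXD, MYC2 and ERF1 were followed in tomato (Solanum lycopersicum) seedlings on Agilent arrays. The genes were taken by their probes, A_96_P012511 for LOXD, A_96_P012176 for MYC2 and A_96_P012681 for ERF1, together with every other probe that carries the same transcript accession. These 3 of 33703 transcript names on the array are read by 7 of the 43603 probes that are not controls, 5 for LOXD, 1 for MYC2 and 1 for ERF1. In the RefSeq gene table LOXD is loxD on chromosome 3, MYC2 is MYC2 on chromosome 8, and ERF1 is a gene on chromosome 5 with the synonyms erf1a, TERF1 and SlERF-C1.

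Whole seedlings that were 15 days old were kept in liquid MS medium and given 1 of 3 treatments. The bacterium MBI600 was represented by a filtrate of its culture without cells (MBI600 CFCF), added at 1 part in 5 by volume. The peptide flg22, a stretch of bacterial flagellin that plants recognise, was added at 1 µM. The control is described in the methods as LB with MS medium and in the sample labels as water, and no LB is described for the flg22 group, so that treatment and medium cannot be told apart there. Seedlings were collected at 6 and 24 h, which made 6 groups of 2 arrays, each array with RNA from a pool of 2 seedlings. The sources do not say whether both pools of a group came from the same experiment, so the spread between arrays may leave out variation between experiments. The arrays lay on 3 slides of 4 arrays, and no slide held every group.

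Jasmonate is made from a fatty acid of the chloroplast membrane. LOXD is the 13-lipoxygenase that carries out the first step in wounded tomato leaves, and allene oxide synthase, allene oxide cyclase and a 12-oxophytodienoate reductase follow. The active form of the hormone removes JAZ repressors through the receptor COI1 and so frees MYC2, the transcription factor at the head of the jasmonate response. Ethylene acts through its own receptors and EIN3-like factors, and ERF1 belongs to the ERF transcription factors, which in Arabidopsis join ethylene and jasmonate signals. In RNA of whole seedlings, fewer cells of a type and less transcript per cell cannot be told apart.

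Signals are given as log2 of the green signal after background correction and quantile normalization, and a difference of 1 on this scale is a 2-fold change. Between 69.8% and 81.7% of the spots of an array were well above background, none was saturated, and both arrays of a group correlated at 0.970 to 0.993 over all probes. The label of whole seedlings was checked with marker lists. All 14 shoot markers (Rubisco small subunits and chlorophyll-binding proteins) were well above background on all 12 arrays, against 2 of 5 root markers (transporters and other genes of mineral uptake), of which 1 was never well above background. Arrays of the same group differed in these lists. In the control at 6 h, replicate 2 was below replicate 1 for 11 of 14 shoot markers (median difference -0.81). It was above replicate 1 for 5 of 5 root markers (median 0.17) and for 6 of 6 genes of a jasmonate response list (median 1.04). This shoot marker gap was the largest in size among the 6 groups. The jasmonate response gap was larger at 6 h with MBI600 CFCF (median 1.59) and with flg22 (median -1.42). With 2 arrays per group, it cannot be told which array of a pair is unusual.

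None of the 7 probes passed an adjusted p of 0.1 in any comparison, with limma over all 43603 probes. With flg22 against the control, 0.411% of all probes passed at 6 h and 0.0161% at 24 h, and 0.195% and 0.00459% also differed by a log2 value of at least 2 in size. With MBI600 CFCF, 0% passed at 6 h, where 1099 probes (2.52% of all) had an unadjusted p under 0.05. At 24 h 0.00459% passed, all of them with a difference of that size. The direct comparison of MBI600 CFCF with flg22 let 0.241% pass at 6 h (0.101% with that size) and 0.00688% at 24 h (0.00459%).

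LOXD was highest with flg22 at both times. At 6 h the control arrays read 9.63 and 11.09, the flg22 arrays 11.78 and 11.54, and the MBI600 CFCF arrays 9.97 and 9.47. At 24 h the control arrays read 9.71 and 9.68, the flg22 arrays 11.01 and 10.73, and the MBI600 CFCF arrays 9.83 and 9.80. Both flg22 arrays were above both control arrays at each time, whereas the MBI600 CFCF arrays at 6 h lay on both sides of the lower control array.

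**Figure D1:**
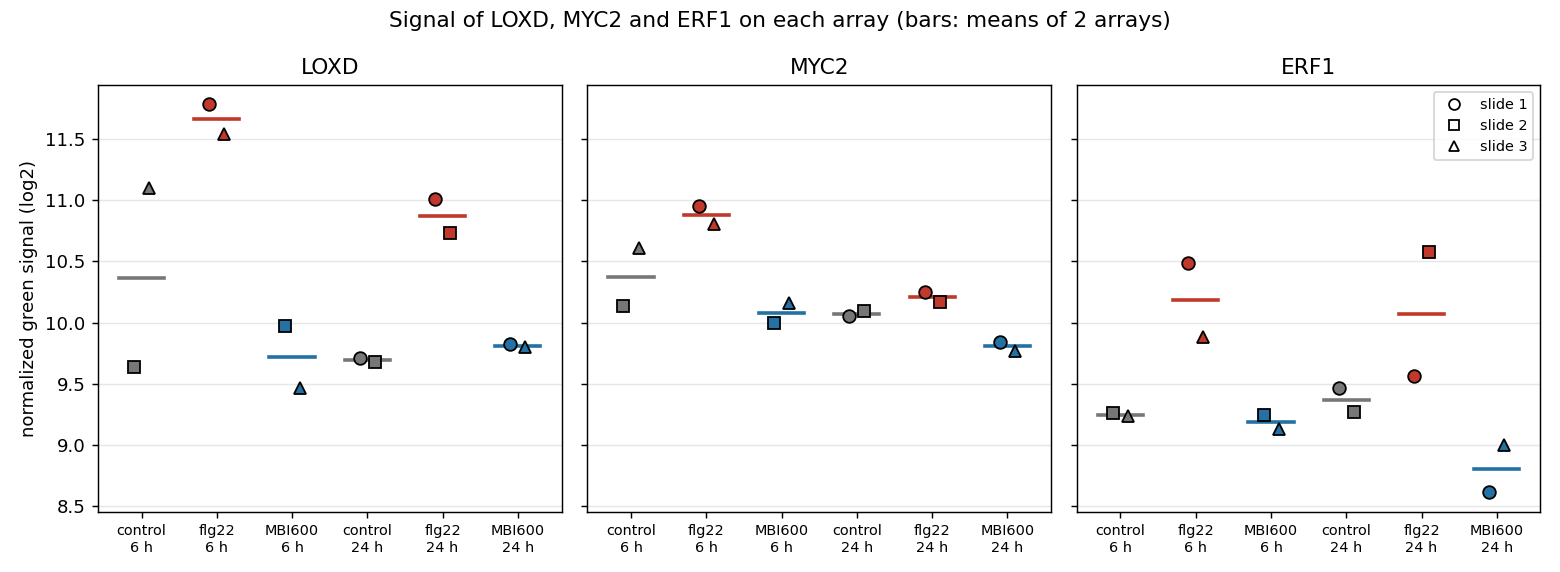
Normalized green signal (log2, vertical axis) of LOXD, MYC2 and ERF1 on each of the 12 arrays by treatment and time, with symbols for the 3 slides and bars for the means of 2 arrays. The flg22 arrays lie above the control arrays of the same time in each panel, and the control arrays of LOXD at 6 h lie 1.46 apart.

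The order of the LOXD means was flg22 at 6 h (11.66), flg22 at 24 h (10.87), the control at 6 h (10.36), MBI600 CFCF at 24 h (9.81), MBI600 CFCF at 6 h (9.72) and the control at 24 h (9.69). No neighbours in this order differed beyond the 95% interval of their difference, which extended 0.93 to either side. The control at 6 h was the least certain of these means, with an SD of 1.03. Its arrays differed by 1.46, and 1.33% of all probes had a larger gap in that group. In the 5 other groups the LOXD arrays differed by 0.03 to 0.50.

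With flg22, LOXD was 1.30 higher than the control at 6 h (SE 0.40, 95% interval 0.37 to 2.22, adjusted p = 0.598) and 1.18 higher at 24 h (SE 0.40, interval 0.25 to 2.1, adjusted p = 0.658), or 2.46-fold and 2.26-fold. The value at 6 h rested on the control arrays. Without control replicate 2 the difference was 2.03 and passed (adjusted p = 0.0502, SE 0.23), and without control replicate 1 it was 0.57. On slide 3, which held 1 array of each group at 6 h, flg22 was 0.45 above the control, the array there being control replicate 2. At 24 h the difference was 1.31 on slide 1 and 1.05 on slide 2, and between 1.04 and 1.32 with any 1 array left out. Relative to replicate 1, control replicate 2 at 6 h also had mostly lower shoot markers and higher jasmonate response genes, as given above. Their part in its LOXD signal was not tested.

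With MBI600 CFCF, LOXD was lower than the control at 6 h by estimate (-0.65, SE 0.40, interval -1.57 to 0.28, adjusted p = 0.948). The sign depended on 1 control array, with 0.08 without control replicate 2, 0.34 on slide 2 and -1.63 on slide 3. At 24 h the difference was 0.12 (interval -0.81 to 1.04, adjusted p = 0.951) and 0.12 within slide 1, and a fit with a term for the slide gave -0.04.

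Set directly against each other, the treatments lay further apart in LOXD, by estimate, than either did from the control at 6 h. Under MBI600 CFCF the gene stood below its level under flg22 at 6 h (log2 difference -1.94, SE 0.40, interval -2.87 to -1.02, adjusted p = 0.213), a 3.85-fold difference. No control array entered this estimate, but its SE, interval and p used the spread within all 6 groups. That spread was widest in the control at 6 h (SD 1.03). The difference was -2.08 within slide 3 and between -2.20 and -1.69 with any 1 array left out, and 0.585% of all probes had a smaller p. With a trended and robust variance estimate the same difference passed (adjusted p = 0.0588). At 24 h the difference was -1.06 (interval -1.98 to -0.13, adjusted p = 0.998) and -1.19 within slide 1. At 6 h the shoot markers were higher with MBI600 CFCF than with flg22 in 14 of 14 genes (median 0.38) and the root markers lower in 4 of 5 (median -0.67), with none past the threshold. The part of these shifts in the LOXD difference was not tested.

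**Figure D2:**
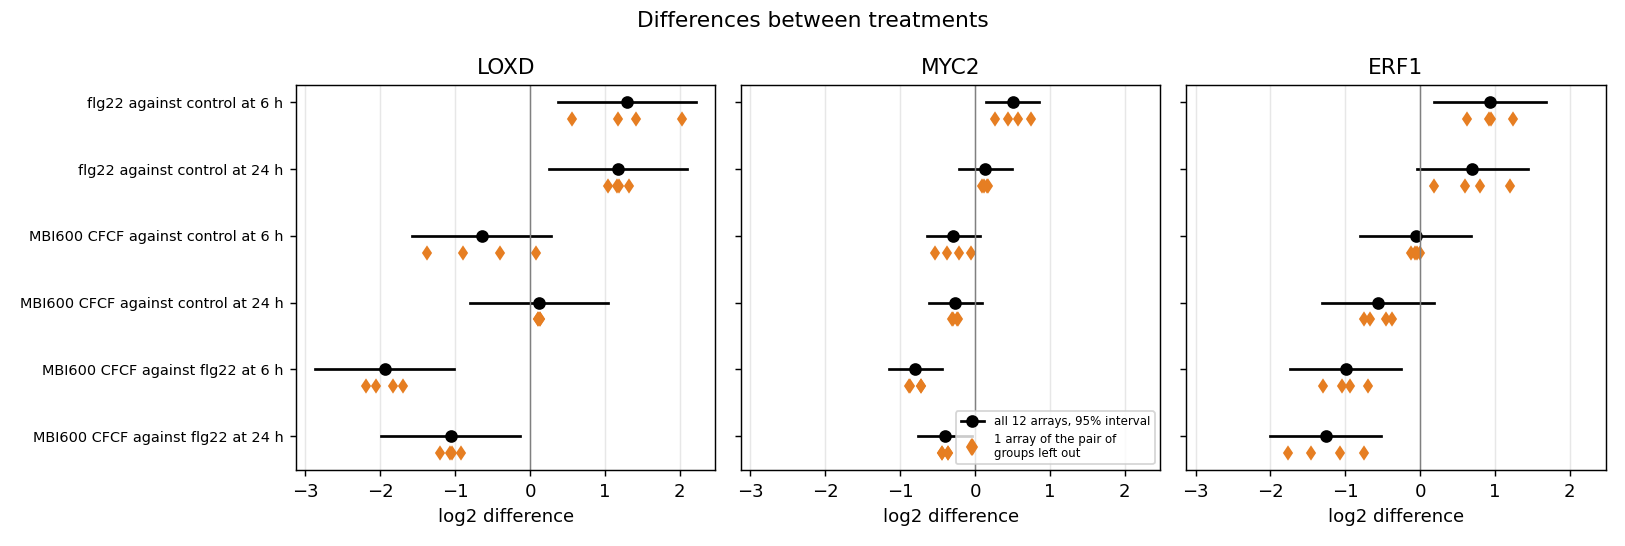
Log2 differences (horizontal axis) of LOXD, MYC2 and ERF1 between treatments at each time, as estimates from all 12 arrays with 95% intervals (black) and as estimates with 1 array of the compared groups left out (orange). For LOXD with flg22 at 6 h the left-out estimates run from 0.57 to 2.03, and for MBI600 CFCF against flg22 at 6 h from -2.20 to -1.69.

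The 5 LOXD probes did not carry the same information. A_96_P151446 was well above background on all 12 arrays, like A_96_P012511, and both rose and fell together over the arrays (Pearson r 0.991, Spearman rho 0.951). It read 9.20 and 10.81 in the control at 6 h, 11.32 and 11.40 with flg22 at 6 h, and 9.55 and 9.19 with MBI600 CFCF at 6 h. The gap between the control arrays at 6 h is thus present on both bright probes. At 24 h it read 9.20 and 9.14 in the control, 10.80 and 10.44 with flg22, and 9.47 and 9.60 with MBI600 CFCF. For MBI600 CFCF against flg22 at 6 h its difference was -1.98 (adjusted p = 0.239), which passed with a trended and robust variance (adjusted p = 0.0682). Its differences from the control were 1.35 and 1.45 with flg22 and -0.63 and 0.37 with MBI600 CFCF, at 6 and 24 h. Its difference at 6 h with flg22 passed when control replicate 2 was left out (2.16, adjusted p = 0.0283), and that at 6 h with MBI600 CFCF then turned to 0.17.

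A_96_P200284 was dimmer, between 6.08 and 7.27, and well above background on 11 of 12 arrays. It read 7.27 and 6.87 with flg22 and 6.34 and 6.64 in the control at 6 h. At 24 h, unlike on the bright probes, its flg22 arrays (6.42 and 6.97) overlapped those of the control (6.36 and 6.48), with a difference of 0.28. It correlated with A_96_P012511 at 0.775 (Spearman rho 0.497). A_96_P143686 was well above background on 7 of 12 arrays, among them neither control array at 6 h. By estimate it was 1.23-fold higher with flg22 than in the control at 6 h (log2 difference 0.30, 95% interval 0.02 to 0.58, adjusted p = 0.946). Taking the control at the higher of its own signal and the lowest signal well above background gave the same value. At 24 h its flg22 and control arrays overlapped too (6.37 and 6.31 against 5.99 and 6.32), with a difference of 0.18. A_96_P077809 was well above background on no array. For MBI600 CFCF against flg22 at 6 h, A_96_P200284 differed by -0.66, A_96_P143686 by -0.27 and A_96_P077809 by 0.07. The size on A_96_P200284 depended on the processing. Over 11 other settings with all 12 arrays this difference ran from -1.58 to -0.53. That of flg22 from the control ran from 0.49 to 1.60 at 6 h and from 0.28 to 0.90 at 24 h. The sequences of the probes were not used here, so which part of the transcript each one reads is not given.

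**Figure D3:**
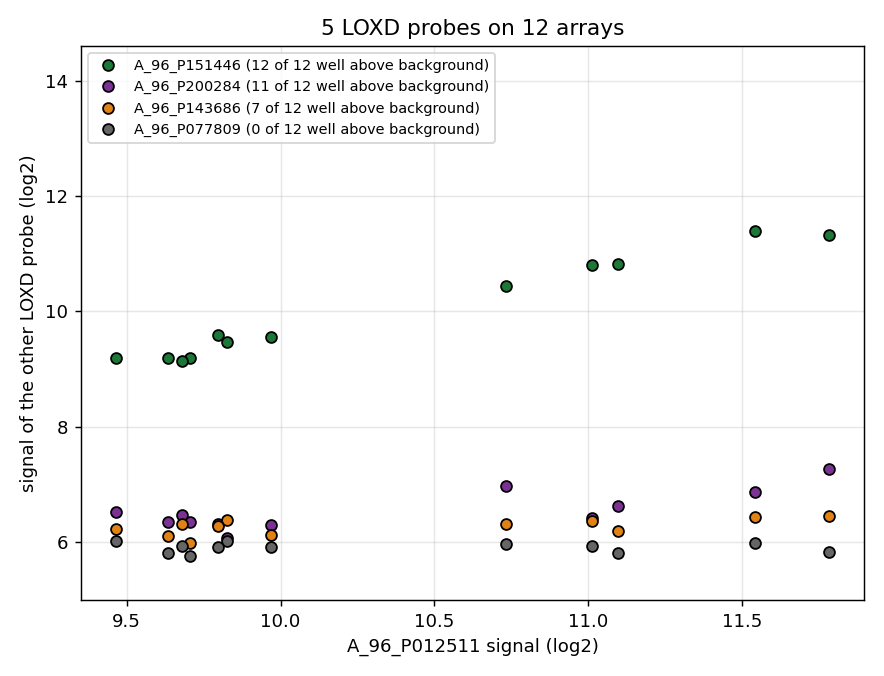
Signal (log2) of the 4 other LOXD probes (vertical axis) against A_96_P012511 (horizontal axis) on 12 arrays. A_96_P151446 rises with A_96_P012511 (r 0.991), while the 3 dimmer probes stay between 5.76 and 7.27.

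MYC2 moved less than LOXD and varied less between arrays. At 6 h the control arrays read 10.13 and 10.61, the flg22 arrays 10.95 and 10.81, and the MBI600 CFCF arrays 9.997 and 10.16. The control arrays at 24 h read 10.05 and 10.09, the flg22 arrays 10.25 and 10.17, and the MBI600 CFCF arrays 9.84 and 9.77. The flg22 arrays were the highest of their time at both times and the MBI600 CFCF arrays at 24 h the lowest of all 12. Among groups of the same time, only the control and MBI600 CFCF at 6 h overlapped.

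In order, the MYC2 means were 10.88 with flg22 at 6 h, 10.37 in the control at 6 h, 10.21 with flg22 at 24 h, 10.08 with MBI600 CFCF at 6 h, 10.07 in the control at 24 h and 9.81 with MBI600 CFCF at 24 h. The step from the first to the second (0.51) was the only one between neighbours beyond the 95% interval of a difference, which extended 0.35 to either side.

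With flg22, MYC2 was 0.51 above the control at 6 h (SE 0.15, interval 0.15 to 0.86, adjusted p = 0.574), and 0.13 above it at 24 h (interval -0.22 to 0.49, adjusted p = 0.972). At 6 h the difference was 0.20 within slide 3, 0.27 without control replicate 1 and 0.74 without control replicate 2. With MBI600 CFCF it was below the control by estimate at both times, by -0.29 at 6 h (interval -0.65 to 0.06, adjusted p = 0.948) and -0.27 at 24 h (interval -0.62 to 0.09, adjusted p = 0.734). Without control replicate 2, the estimate at 6 h was -0.06.

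Between both treatments at 6 h, MYC2 had the smallest p of the 3 genes. The log2 difference of MBI600 CFCF from flg22 was -0.80 (SE 0.15, interval -1.15 to -0.44, adjusted p = 0.175), -0.65 within slide 3 and between -0.88 and -0.72 with any 1 array left out. Of all probes, 0.456% had a smaller p. At 24 h it was -0.40 (interval -0.76 to -0.05, adjusted p = 0.998).

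ERF1 was likewise highest with flg22, with the widest spread in that treatment. At 6 h the control arrays read 9.26 and 9.24, the flg22 arrays 10.49 and 9.88, and the MBI600 CFCF arrays 9.25 and 9.13. The control arrays at 24 h read 9.47 and 9.27, the flg22 arrays 9.56 and 10.58, and the MBI600 CFCF arrays 8.61 and 9.0. Each flg22 array lay above every control array, and both MBI600 CFCF arrays at 24 h lay below every other array.

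The ERF1 means ran from 10.18 with flg22 at 6 h and 10.07 with flg22 at 24 h over 9.37 in the control at 24 h, 9.25 in the control at 6 h and 9.19 with MBI600 CFCF at 6 h to 8.81 with MBI600 CFCF at 24 h. No neighbours differed beyond the 95% interval of a difference, which extended 0.74 to either side. The control arrays at 6 h, so far apart in LOXD, differed by 0.03 in ERF1.

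With flg22, ERF1 was 0.93 above the control at 6 h (SE 0.32, interval 0.19 to 1.68, adjusted p = 0.749) and 0.70 above it at 24 h (interval -0.04 to 1.44, adjusted p = 0.858). The value at 24 h came mainly from 1 array, since it was 0.09 on slide 1 and 1.31 on slide 2, and leaving out flg22 replicate 2 gave 0.19 and leaving out replicate 1 gave 1.21. With MBI600 CFCF, ERF1 differed from the control by -0.06 at 6 h (interval -0.80 to 0.69, adjusted p = 0.986) and by -0.56 at 24 h (interval -1.31 to 0.18, adjusted p = 0.734). The interval at 6 h leaves room for a change of up to 0.80 downwards or 0.69 upwards.

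By estimate, ERF1 had its larger gap between both treatments at 24 h, and LOXD and MYC2 at 6 h. The log2 difference of MBI600 CFCF from flg22 was -0.99 at 6 h (interval -1.74 to -0.25, adjusted p = 0.67) and -1.26 at 24 h (SE 0.32, interval -2.01 to -0.52, unadjusted p = 0.00442, adjusted p = 0.998). At 24 h it was -0.95 within slide 1, and -0.75 without flg22 replicate 2. Of all probes, 0.275% had a smaller p there, while only 3 probes of the whole array passed an adjusted p of 0.1.

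Side by side, the 3 genes lay on the same side in most comparisons. With flg22, all 3 probes were above both control arrays at 6 h, as were 13.4% of all probes, and again at 24 h, as were 14.5%. Both of these comparisons and the MBI600 CFCF comparisons share the control arrays of their time. With MBI600 CFCF at 24 h, MYC2 and ERF1 were below both control arrays, as were 25% of all probes, and LOXD was above them, as were 24.9%. Against flg22, all 3 were lower on both MBI600 CFCF arrays at 6 h (16.1% of all probes) and at 24 h (16%). Over the 12 arrays, LOXD correlated with MYC2 at a Pearson r of 0.863 (Spearman rho 0.636) and with ERF1 at 0.690 (rho 0.497), and MYC2 with ERF1 at 0.636 (rho 0.664). These points share 6 groups, so that the correlations describe differences between groups as well as between arrays.

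Over time none of the 7 probes passed, while 0% of all probes passed in the control, 0.388% with flg22 and 0.0138% with MBI600 CFCF. The difference with the smallest p was a lower MYC2 at 24 h than at 6 h with flg22 (log2 difference -0.67, SE 0.15, interval -1.02 to -0.32, adjusted p = 0.226). LOXD differed by -0.79 there (interval -1.72 to 0.13, adjusted p = 1) and ERF1 by -0.11 (interval -0.86 to 0.63). In the control the same differences were -0.67 for LOXD, -0.30 for MYC2 and 0.12 for ERF1, and with MBI600 CFCF 0.09, -0.27 and -0.38. Without control replicate 2 at 6 h, LOXD in the control became 0.06 and MYC2 -0.06, and without replicate 1 of MBI600 CFCF at 24 h ERF1 with MBI600 CFCF became -0.19. The effect of flg22 at 24 h minus that at 6 h was -0.12 for LOXD (SE 0.57), -0.37 for MYC2 (SE 0.22) and -0.23 for ERF1 (SE 0.46). For MBI600 CFCF it was 0.77, 0.03 and -0.50. With any 1 array left out, the LOXD value for MBI600 CFCF ran from 0.035 to 1.495, the lower end without control replicate 2 at 6 h, the MYC2 value for flg22 from -0.61 to -0.13 and the ERF1 value for MBI600 CFCF from -0.70 to -0.31. None of these 6 differences of effects passed, while 0.00229% of all probes did for flg22 and 0% for MBI600 CFCF, and the lowest adjusted p among them was 0.655.

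The genes around LOXD in jasmonate synthesis were read from a list of 19 names, of which 12 genes other than LOXD had a probe that could be matched. With flg22 at 6 h, 1 of the 12 passed, as higher, against 0.411% of all probes. Above both control arrays lay 6 of 12 (13.4% of all probes), and below both lay 3 of 12 (16%). The median of the list was 0.67, against -0.02 over all probes. The gene that passed was LOXA (LOX1.1 in RefSeq), which is known as a 9-lipoxygenase and not as an enzyme of jasmonate synthesis. It read 9.45 and 9.60 in the control and 14.49 and 13.02 with flg22 (log2 difference 4.23, SE 0.43, adjusted p = 0.0179). Allene oxide cyclase (AOC) was 2.21 higher (adjusted p = 0.115) and OPR3, the reductase of the jasmonate branch, 1.05 higher (adjusted p = 0.126), both without passing. Of 11 other settings with all 12 arrays, AOC passed under 5 and OPR3 under 0. AOC read 10.55 and 10.49 in the control and 13.19 and 12.27 with flg22. The LOXD estimate of 1.30 stood between those of OPR3 and AOC.

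By 24 h of flg22, no gene of this list passed against the control and its median was 0.02. LOXA differed by -3.61 between 24 and 6 h of flg22 (adjusted p = 0.0318) and AOC by -2.49 (adjusted p = 0.0812), and both fell, whereas LOXD differed by -0.79. AOC no longer passed without flg22 replicate 1 at 6 h (-2.03, adjusted p = 0.459) and without either flg22 array at 24 h (-2.09 and -2.89, adjusted p = 0.262 and 0.136), and LOXA without either flg22 array at 24 h (-3.39 and -3.83, adjusted p = 0.135 and 0.121). With MBI600 CFCF no gene of the list passed at either time, with medians of 0.03 and -0.05. Directly against flg22 at 6 h, LOXA was lower with MBI600 CFCF (-3.76, adjusted p = 0.0374). It no longer passed without MBI600 CFCF replicate 1 (-3.40, adjusted p = 0.177) or with the slide as a term (-3.64, adjusted p = 0.136).

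Around MYC2, 6 genes of 23 names for jasmonate signalling could be read. With flg22 at 6 h 2 of 6 passed, both as higher (0.411% of all probes passed), with a list median of 0.85. JAZ2, one of the repressors that bind MYC2 and are themselves induced by jasmonate, read 6.09 and 6.41 in the control and 7.43 and 7.63 with flg22 (1.28, SE 0.15, adjusted p = 0.0271). JA2L, a NAC transcription factor, was 0.76 higher (adjusted p = 0.0767). The receptor gene COI1 differed by -0.10 and JAMYC10 (MYC1), a relative of MYC2, by 0.03. At 24 h of flg22 no gene passed and the median was 0.30, and JAZ2 was 1.22 lower than at 6 h (-1.22, adjusted p = 0.0356). This difference over time no longer passed with any 1 of the 4 arrays left out (adjusted p from 0.125 to 0.176), nor did that against the control at 6 h without control replicate 1 (1.12, adjusted p = 0.142) or flg22 replicate 1 (1.38, adjusted p = 0.132). With 75th percentile scaling the adjusted p of JAZ2 and JA2L was 1. With MBI600 CFCF none of the 6 passed, with medians of 0.22 at 6 h and 0.11 at 24 h.

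Among the jasmonate response genes, 6 of 18 names could be read. With flg22 at 6 h 3 of 6 passed, all as higher (0.411% of all probes passed), with a list median of 4.96. LAPA2, a relative of leucine aminopeptidase A, differed by 0.04 there. CEVI57, a type II proteinase inhibitor, read 7.81 and 7.90 in the control and 12.79 and 13.34 with flg22 (5.21, SE 0.36, adjusted p = 0.00595). Leucine aminopeptidase A (LAPA1) was 6.28 higher (SE 1.01, adjusted p = 0.074), and arginase 2 (ARG2) 2.85 higher (SE 0.49, adjusted p = 0.0985). Threonine deaminase (TD, TD2 in RefSeq) was 5.69 higher without passing (SE 1.19, adjusted p = 0.201), and passed under 3 of 11 other settings. At 24 h the median was 3.16 and none passed, with the largest estimate for MCPI (3.55, SE 0.85, adjusted p = 0.427). With MBI600 CFCF the medians were 1.20 at 6 h and 0.54 at 24 h, and none passed. At 6 h, 4 of 6 estimates were higher than the control. The largest were those of MCPI (2.26, SE 0.85), TD (1.98, SE 1.19) and LAPA1 (1.85, SE 1.01), each with an adjusted p of 0.948. Against flg22 at 6 h, CEVI57 was lower with MBI600 CFCF (-5.71, adjusted p = 0.00313). The estimate ran from -6.24 to -5.17 with any 1 of the 4 compared arrays left out. Between 24 and 6 h of flg22 CEVI57 fell by 3.54 (adjusted p = 0.0318). The last of these differences no longer passed without flg22 replicate 1 at 6 h (-3.81, adjusted p = 0.113).

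The 6 list genes that passed with flg22 at 6 h did not do so equally often under other settings. CEVI57 passed under 10 of 11 other settings and with any 1 of 4 arrays left out, and LOXA under 10 of 11 and with 3 of 4 left out, the exception being control replicate 1 (4.15, adjusted p = 0.116). JAZ2 passed under 8 of 11 and with 2 of 4 left out. LAPA1 passed under 8 of 11, ARG2 under 6 of 11 and JA2L under 5 of 11. LAPA1 and ARG2 each passed with 1 of 4 arrays left out and JA2L with none, with adjusted p up to 0.543, 0.581 and 0.451. When only the 2 compared groups were fitted, none of the 6 passed. The lists were drawn up with results of these arrays known, so their counts are a description.

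**Figure D4:**
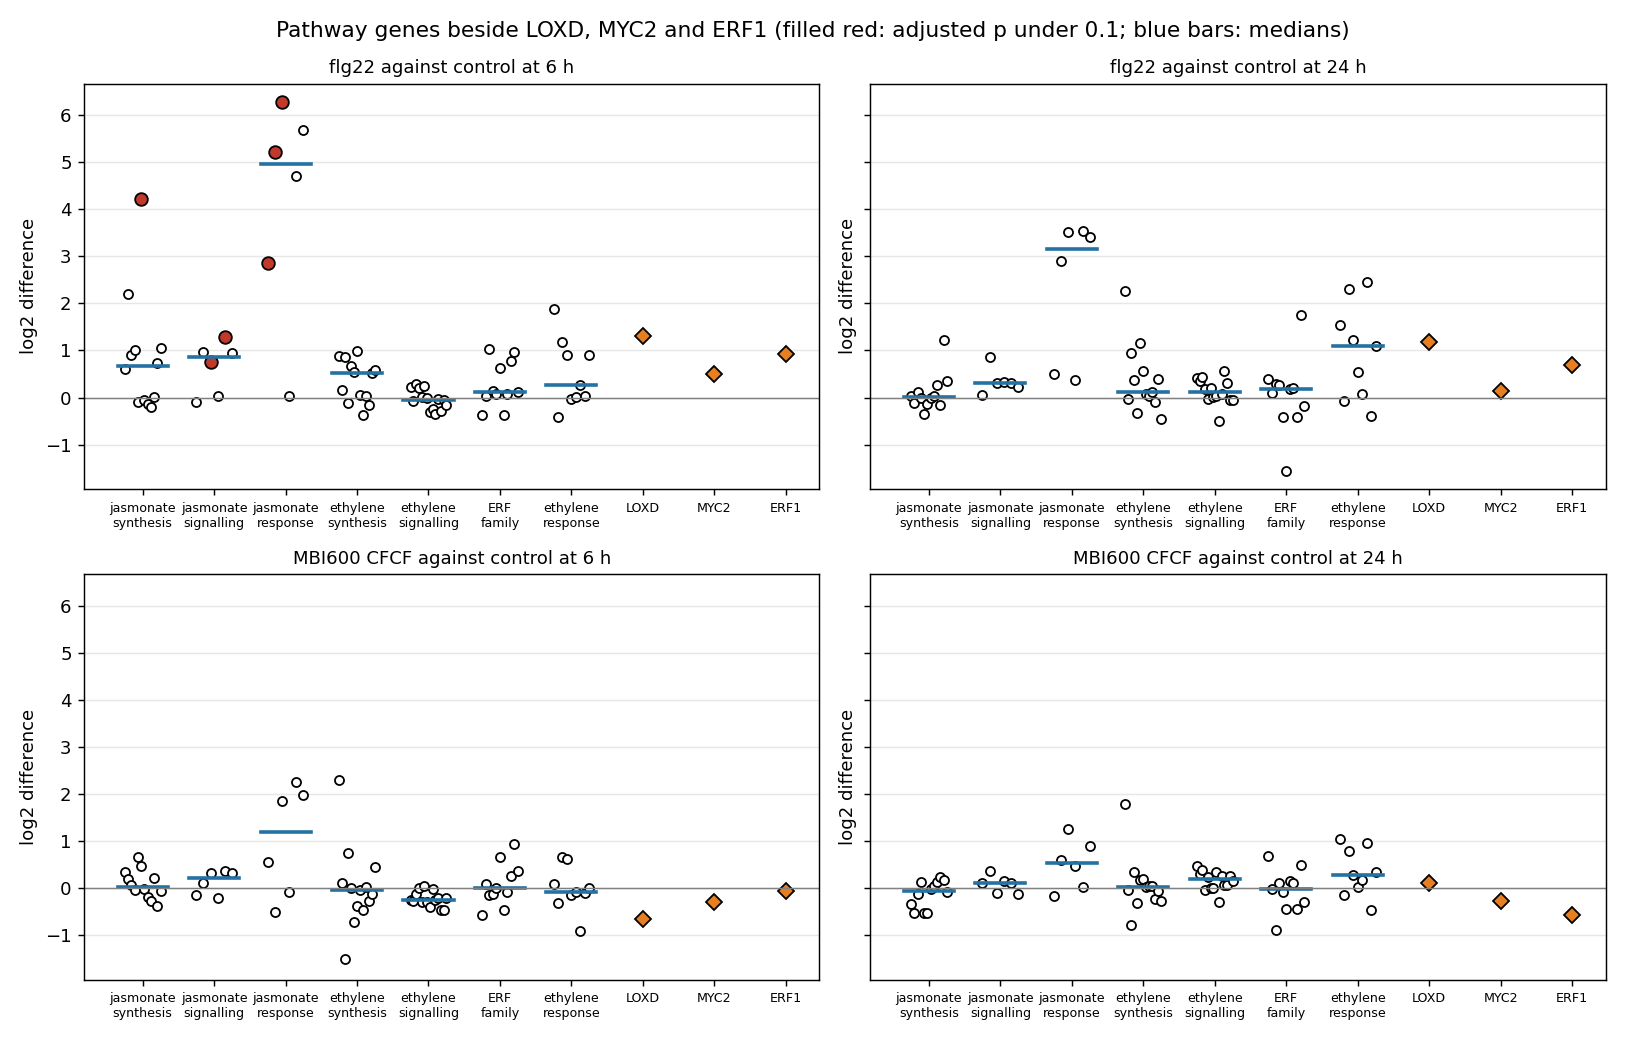
Log2 differences from the control (vertical axis) of the genes in 7 lists and of LOXD, MYC2 and ERF1 (orange), for both treatments and times, with genes past an adjusted p of 0.1 in red and list medians as blue bars. The jasmonate response genes with flg22 at 6 h have a median of 4.96, and no gene passes with MBI600 CFCF.

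Around ERF1, no ethylene gene passed in any comparison with the main settings, though some did under others. With a trended and robust variance, CHI14, an ethylene response gene, passed with flg22 at 6 h (1.89, adjusted p = 0.0785). CHI3 then passed with flg22 at 24 h (2.32, adjusted p = 0.0677), and ACS3 for MBI600 CFCF against flg22 at 6 h (-1.37, adjusted p = 0.0905). PTI5 with flg22 at 24 h passed with the scanner's processed signal (3.64, adjusted p = 0.0868). With the main settings, the lists held 13 genes of ethylene synthesis and 14 of ethylene signalling. They also held 11 other ERF and related factors, AP2A among them, and 9 ethylene response genes. Of all these genes, none passed with either treatment, directly between treatments, or over time. With flg22 at 6 h the list medians were 0.53, -0.05, 0.11 and 0.27, and at 24 h 0.13, 0.13, 0.18 and 1.09. ERF1 at 0.93 thus lay above the median of the list of ERF and related factors at 6 h. ERF2, another gene of that list, was 1.04 higher with flg22 at 6 h (SE 0.75), but its control arrays read 9.97 and 12.30, and the estimate was -0.12 without control replicate 1. PTI5, an ERF that in tomato binds the kinase Pto, was 1.76 higher with flg22 at 24 h (adjusted p = 0.415), and ERF5 was -1.55 there (adjusted p = 0.501).

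Within ethylene synthesis, the list medians with MBI600 CFCF were -0.04 at 6 h and 0.02 at 24 h. ACO5, an ACC oxidase of the last step, was lower than the control by estimate at 6 h (-1.51, SE 0.80, adjusted p = 0.948). Its estimate ran from -2.61 to -0.41 with any 1 array left out. ACO1, also an ACC oxidase, had estimates above 1.5 with MBI600 CFCF at both times. It read 9.04 and 8.96 in the control, 9.79 and 9.97 with flg22, and 11.42 and 11.19 with MBI600 CFCF at 6 h. The MBI600 CFCF arrays at 6 h were thus above both control arrays, as were 13.5% of all probes, and above both flg22 arrays, as were 17%. The ACO1 difference from the control was 2.31 (SE 0.54, adjusted p = 0.948). Its differences at 24 h were 1.80 for MBI600 CFCF (adjusted p = 0.734) and 2.25 for flg22 (adjusted p = 0.427), the latter 3.28 without flg22 replicate 1 (adjusted p = 0.0211) and 1.23 without flg22 replicate 2. ERF1 differed by -0.06 and -0.56 from the control on the same MBI600 CFCF arrays. The chitinase CHI3, an ethylene response gene, was 2.32 higher with flg22 at 24 h (adjusted p = 0.18).

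The RefSeq-named genes whose pattern over the 12 arrays was most like each of the 3 were taken from 1089 genes well above background on all arrays, by Pearson r. For LOXD these were GRAS2, a GRAS family gene (r 0.938), cevi16, a peroxidase gene (0.934), and ZF2 (0.931), against a median r of 0.06 over all candidates. GRAS2 read 9.68 and 10.13 in the control at 6 h, 10.85 and 10.81 with flg22 at 6 h, and 9.47 and 9.19 with MBI600 CFCF at 6 h. It shared with LOXD the high flg22 arrays and the higher control replicate 2. For MYC2 the closest were BI-GST/GPX (r 0.923), OPR3 (0.920) and CTOMT1, a catechol O-methyltransferase gene (0.914). OPR3 read 10.95 and 11.25 in the control at 6 h, 12.13 and 12.16 with flg22, and 10.77 and 11.31 with MBI600 CFCF. For ERF1 they were GRAS2 (r 0.844), PR-1a1 (0.823) and TAL (0.812), so that GRAS2 stood first for both LOXD and ERF1. These correlations describe 6 groups of 2 arrays and carry no test.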

How the data were processed

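For each array the authors deposited scanner output, with the median intensity of every spot and of its surroundings in a green and a red channel, not normalized (Agilent Feature Extraction 10.7.3.1 per the file headers). A table of log2 green signals that the authors had processed was deposited as well, and normexp with quantile normalization of all spots, run on the scans, matched it to within 5e-09. The values reported differ slightly from it, since control spots were left out before quantile normalization and outlier spots were dropped. The sources used here do not say what the red channel held, so only green signals were compared, as in the methods.

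Green medians were corrected with normexp (offset 50) on the background median and quantile normalized (limma 3.58.1, R 4.3.3). Averaging 43803 spots gave 43603 probes. A mean per group was fitted over 12 arrays with lmFit and eBayes, and p was adjusted over all probes (Benjamini-Hochberg). Every adjusted p is from this test. A probe passed at an adjusted p under 0.1, and was called if its log2 difference was also at least 2 in size. No permutation test of 2 arrays against 2 can reach the threshold, so none was run, and the number of arrays limits the precision. The steps were tested on simulated data.

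The 3 genes and the lists were chosen with earlier results of these data known. List names were matched to the RefSeq table of SLM_r2.1 (4884 probes, 2232 genes), used for names only, and the brightest probe stood for a gene. By rule, at most 3 genes per list and comparison were named by size of difference. ARG2, LAPA2, COI1 and JAMYC10 were added after their values were seen. The alternatives changed the signal (processed, no background subtraction, deposited values, green to red ratio), the scaling (75th percentile), the filters (dim probes, outlier spots), the model (slide, replicate number, compared groups alone, trended and robust variance), the threshold, or left out an array. An array was left out only where its group was part of the comparison.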

Additional observations from a re-analysis of the deposited data

Results flagged for a closer look

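Among 52 pairs of effects at both times that were examined over LOXD, MYC2, ERF1 and the named pathway genes, 1 lay in opposite directions with no overlap of the arrays. LOXA with MBI600 CFCF was above both control arrays at 6 h (log2 difference 0.47) and below both at 24 h (-0.51). The effect at 24 h minus that at 6 h was -0.985 (SE 0.61), and this difference did not pass when tested as an interaction in limma (adjusted p = 0.625). Of all probes, 13.5% lay above both control arrays with MBI600 CFCF at 6 h, and 25% lay below both at 24 h. The share of probes with both was not counted, so this pair is a description only.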

How the results depend on the processing

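With all 12 arrays, the directions of LOXD, MYC2 and ERF1 between treatments held under every other setting except 1, LOXD with MBI600 CFCF against the control at 24 h, which was -0.044 with the slide as a term. The side of the threshold held except for LOXD with MBI600 CFCF against flg22 at 6 h, which passed with a trended and robust variance (-1.94, adjusted p = 0.0588). Smaller differences turned sign more easily. LOXD over time with MBI600 CFCF was -0.059 and its flg22 effect at 24 h minus 6 h 0.034 with the slide as a term. The MBI600 CFCF effect on MYC2 at 24 h minus 6 h was -0.027 with 75th percentile scaling, -0.00808 with the deposited values and -0.065 with the slide as a term, and ERF1 over time in the control was -0.32 as a green to red ratio. The LOXD probe A_96_P200284 with MBI600 CFCF was 0.019 at 6 h with the scanner's processed signal and 0.45 at 24 h with 75th percentile scaling, which moved the median of all probes there to 0.46.

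With 1 array left out, LOXD with flg22 against the control ranged from 0.57 to 2.03 at 6 h, and with MBI600 CFCF from -1.38 to 0.084. Of the 3 genes' probes 0 to 2 were then called with flg22 at 6 h, the 2 being A_96_P012511 and A_96_P151446 without control replicate 2. A_96_P151446 with MBI600 CFCF at 6 h ranged from -1.44 to 0.17, A_96_P200284 from -0.22 to 0.072, and ERF2 with flg22 at 6 h from -0.12 to 2.21. LOXD over time ranged from -1.40 to 0.06 in the control and from -0.16 to 0.35 with MBI600 CFCF, and its flg22 effect at 24 h minus 6 h from -0.85 to 0.61. The MBI600 CFCF effect on MYC2 at 24 h minus 6 h ranged from -0.21 to 0.26. For ERF1 with flg22, the difference over time ranged from -0.62 to 0.39 and the effect at 24 h minus 6 h from -0.74 to 0.27.

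The replicate numbers shared by the groups were not taken to pair the arrays, since no source says so and the correlation of same-numbered deviations ran from -0.512 to 0.661 over 15 pairs of groups. It was 0.366, 0.428 and 0.218 between the 3 groups at 6 h, whose replicates 2 all lay on slide 3, and 0.661 between the control and flg22 at 24 h, which share slides by number. With the replicate block, LOXD with flg22 at 6 h stayed at 1.30 (adjusted p = 0.651) and no probe of the 3 genes was called. LAPA1, ARG2 and JA2L with flg22 at 6 h then no longer passed (adjusted p = 0.127, 0.155 and 0.106), nor did AOC over time with flg22 (0.131). AOC (0.156) and ARG2 (0.237) did not pass with a slide term either, nor without background subtraction (0.109 and 0.138), and ARG2 did not with the deposited values (0.1). The count of all called probes with flg22 against the control at 6 h was 85, 65 with the replicate block, 41 with the slide as a term, 179 by adjusted p alone and 0 with only the groups compared, and 12 to 105 with 1 array left out. For MBI600 CFCF against flg22 at 6 h it was 44, 27 with the replicate block, 16 with the slide as a term, 105 by adjusted p alone and 0 with only the groups compared.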
